A study of Mus musculus with 36 samples.

Results

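Carotid arteries of C57BL/6 mice that had received sacubitril/valsartan were compared with those of C57BL/6 mice that had received the vehicle, both dosed on the prophylactic regimen. The comparison used 6 of the 36 RNA-seq libraries of the study, chosen by strain, regimen and treatment label, with 3 in each group. Sacubitril/valsartan combines a prodrug of a neprilysin inhibitor with the angiotensin receptor blocker valsartan, and was given at 60 mg/kg/day, whereas vehicle was given at 2 mL/kg/day. Dosing lasted 16 days, having started 2 days before the left carotid artery was ligated, and the ligated artery was collected 14 days after ligation. Every mouse in both groups had been ligated, so no uninjured artery entered the comparison, and neither the age nor the sex of the mice is given in the sources used here. The other groups of the study were C57BL/6 mice on valsartan alone (27 mg/kg/day), a therapeutic regimen lasting 7 days, and the same drugs and regimens in 129X1/SvJ mice. The study asked how the drugs act on remodelling of the ligated vessel.

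Ligation stops flow in the common carotid artery, and smooth muscle cells of the wall then change from a contractile to a proliferating, matrix-producing state and build a neointima. Neprilysin is a membrane peptidase that degrades natriuretic peptides, bradykinin, adrenomedullin and other small peptides. Its inhibition is known to raise natriuretic peptide signalling through cyclic GMP, while valsartan blocks the angiotensin II type 1 receptor. Both drug actions are on proteins, so the transcript levels below describe the pathways' genes and not the activity of their products.

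No gene passed the test between sacubitril/valsartan and vehicle: 0 of 18628 genes tested (0%) had a Benjamini-Hochberg adjusted p under 0.05 in edgeR's quasi-likelihood test, and the smallest adjusted p was 0.377. At an unadjusted p under 0.05 there were 141 genes (0.757%), of which 97 were estimated higher and 44 lower with the drug. DESeq2, run on 34582 genes without the filter on low counts, called 11 genes higher and 5 lower. Its calls included immunoglobulin and T cell receptor segments such as Ighv1-7, Igkv4-53 and Trbj1-6, beside Serpinb11, Oit1, Wnt8b and Fezf2, whose levels are not reported here. In edgeR without that filter, 0 genes passed. Limma voom called 0, with 537 genes at an unadjusted p under 0.05. Without drug replicate 1 or without drug replicate 3, edgeR called 2 genes higher, Car6 and Wfdc12, and Car6 rests on drug replicate 2 as described below. The median log2 difference over all genes was 0.0089. The data bound the size of a difference better for abundant genes than for rare ones: the 95% interval of the log2 difference had a median half-width of 0.753 over all genes and 0.557 over genes at 5 counts per 1000000 (CPM) or more. For 10086 genes (54.1%) the whole interval lay within 1 log2 unit either way. As a second description, the 3 sacubitril/valsartan values all lay above the 3 vehicle values for 584 genes (3.14%) and all below them for 556 genes (2.98%), and these shares are the background for the counts of non-overlapping genes given below.

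In units of 1000000 counts, the libraries held 24.35, 24.1 and 24.3 with sacubitril/valsartan and 22.5, 22.8 and 22.2 with vehicle, so the depth ranges did not overlap (exact permutation test, two-sided, p = 0.1, the smallest that 3 against 3 can give). Smooth muscle actin (Acta2) stood at 645 to 913 CPM with the drug and 614 to 1505 CPM with vehicle, and the endothelial gene Pecam1 at 161 to 234 and 206 to 270.3 CPM. Tissue from around the vessel was unevenly present. Replicate 2 of the drug group carried Car6 at 2238 CPM, against at most 0.825 CPM in any of the other 5 libraries, and a summed thyroid and parathyroid marker level of 6421 CPM. The thyroid gene Tg was at only 1.04 CPM there. The parathyroid genes Pth and Gcm2 had log2 differences of 3.75 and 3.92, which became -8.26 and -8.31 without that library. Its summed sympathetic neuron and glomus cell markers were at 9387 CPM, against 1300 to 2336 CPM in the other 5. Replicate 1 of each group was poor in skeletal muscle markers, and vehicle replicate 3 was poor in fat markers.

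**Figure D1:**
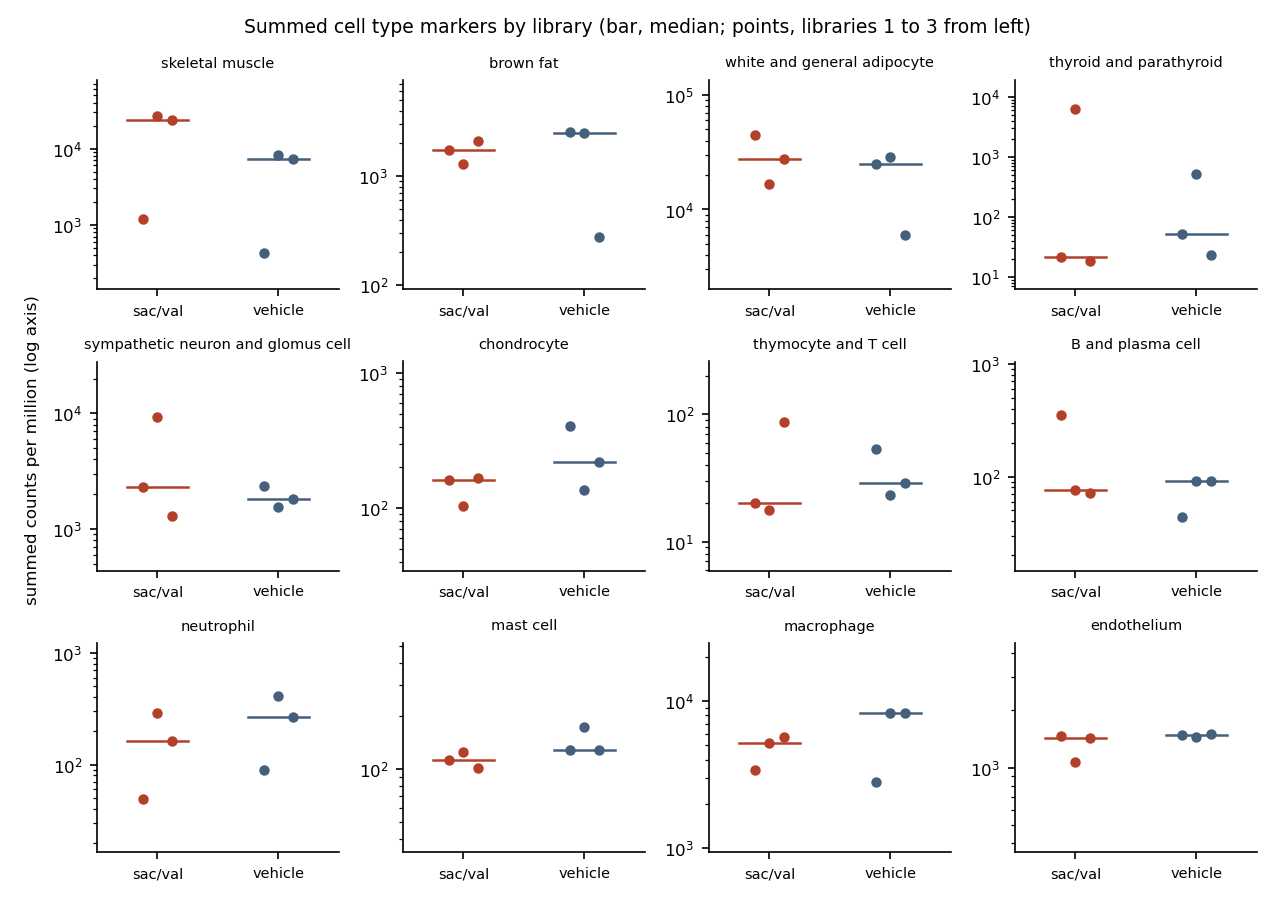
Summed CPM of the markers of 12 cell types or tissues (log axis), for the 3 sacubitril/valsartan libraries left of the 3 vehicle libraries in each panel, with the group median as a bar. The thyroid and parathyroid sum of drug replicate 2 stands at 6421 CPM, and vehicle replicate 3 has the lowest brown fat sum, 274 CPM.

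Genes of the drug's own pathway showed no difference that passed. Neprilysin itself, encoded by Mme (chromosome 3, 63241537 to 63386030, GRCm38), was measured at 65.8, 38.7 and 55.1 CPM with sacubitril/valsartan and at 63.9, 67.5 and 18.9 CPM with vehicle. The groups overlapped, with 1 low vehicle library, and the log2 difference was 0.09 ± 0.43 (SE; 95% interval -0.80 to 0.98), so a change of about 1 log2 unit either way was at the edge of what these data can bound. Over the 17 tested neprilysin and vasoactive peptidase genes the median log2 difference was -0.02, with estimates between -0.30 (Xpnpep2) and 0.44 (Ide, insulin-degrading enzyme), and no gene had groups that did not overlap. Endothelin-converting enzyme 1 (Ece1) was among the more tightly measured members, at 183.5, 165.0 and 185.9 CPM with the drug and 183, 177 and 209 CPM with vehicle, a log2 difference of -0.09 ± 0.22 (SE).

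In the renin-angiotensin system, the type 1 receptor that valsartan blocks (Agtr1a, chromosome 13, 30336441 to 30382867) was at 13.1, 9.35 and 7.19 CPM with the drug and 12.3, 9.17 and 8.15 CPM with vehicle. Its group means were both 9.87 CPM and the 95% interval of the log2 difference ran from -0.73 to 0.74. Angiotensin-converting enzyme (Ace), which makes angiotensin II, was at 584, 143 and 340 CPM with the drug and 448, 299 and 504 CPM with vehicle (log2 difference -0.23 ± 0.53, SE), and the range of the drug libraries enclosed that of the vehicle libraries. Agt, the precursor of the angiotensins, differed by 0.42 ± 0.50 (SE). Of the 13 tested members, 2 had drug values below every vehicle value (15.4%, against 2.98% of all genes). These were Cma1, the mast cell chymase that can also form angiotensin II, at 13.4, 4.92 and 10.05 against 15.5, 17.8 and 13.8 CPM, and Hsd11b2, which inactivates glucocorticoids beside the mineralocorticoid receptor, at 0.251, 0.160 and 0.171 against 0.662, 0.779 and 0.411 CPM. Neither passed the test (adjusted p = 1 in edgeR for both), Hsd11b2 was close to the limit of detection, and both were singled out after their values were seen. The list's median was -0.11 (-0.26 without drug replicate 1 and -0.04 without vehicle replicate 3), and Agtr1b and Mas1, with at most 8 counts in any of the 6 libraries, were not tested.

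On the natriuretic peptide and cyclic GMP side, Npr1, the guanylyl cyclase receptor of atrial and B-type natriuretic peptide, was at 119.5, 73.2 and 89.8 CPM with the drug and 125.5, 113.5 and 97.1 CPM with vehicle (log2 difference -0.25 ± 0.33, SE). Npr3, the clearance receptor, was at 19.7, 14.3 and 19.2 against 19.1, 16.9 and 9.79 CPM (0.22 ± 0.45). Transcripts of the peptides themselves were nearly absent from the artery: Nppa and Nppb had at most 1 count in any of the 6 libraries and were not tested, and Nppc, the vessel-wall C-type peptide, averaged 0.292 ± 0.237 CPM with the drug and 0.274 ± 0.097 CPM with vehicle (SD, n = 3 each). Downstream, phosphodiesterase 5A (Pde5a), which degrades cyclic GMP in smooth muscle, was at 32.99, 34.37 and 34.01 CPM with the drug and 51.5, 35.1 and 51.2 CPM with vehicle. All 3 drug values lay below the vehicle values, the nearest by little, and the log2 difference of -0.44 ± 0.34 (SE) did not pass. Pde5a was the single such member of 22 tested (4.55%), and the list's median was -0.10 (-0.17 without vehicle replicate 2 and -0.06 without drug replicate 2). The soluble guanylyl cyclase subunits Gucy1a3 and Gucy1b3 differed by -0.19 ± 0.41 and -0.09 ± 0.39, and the endothelial nitric oxide synthase Nos3 by -0.06 ± 0.34.

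**Figure D2:**
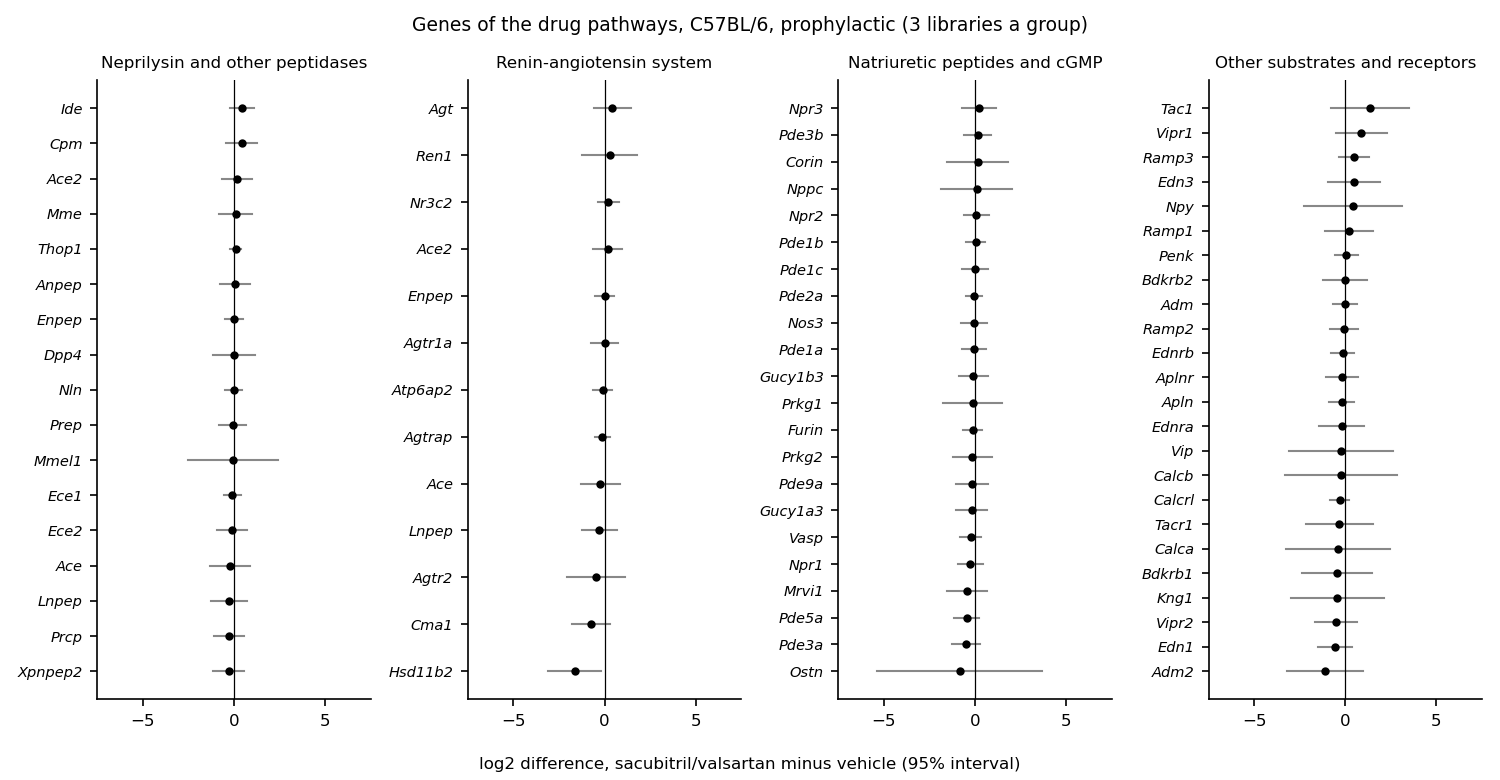
Log2 difference, sacubitril/valsartan minus vehicle, with its 95% interval, for every tested gene of 4 lists around neprilysin, the renin-angiotensin system, natriuretic peptides and other neprilysin substrates (3 libraries a group). All intervals except that of Hsd11b2 (-3.11 to -0.17) include 0.

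The other peptides that neprilysin degrades, and their receptors, had a median log2 difference of -0.20 over 24 tested genes, a value that turned to 0.06 when scores for 6 surrounding tissues were fitted with the groups. Adrenomedullin (Adm) was at 14.0, 11.1 and 8.94 CPM with the drug and 14.5, 7.98 and 12.1 CPM with vehicle, a difference of -0.02 ± 0.31 (SE). Its receptor Calcrl differed by -0.31 ± 0.26, and endothelin 1 (Edn1), a vasoconstrictor, by -0.59 ± 0.46 with overlapping groups. Drug values lay below all vehicle values for 2 members (8.33%), the vasoactive intestinal peptide receptor Vipr2 and, near the limit of detection, Adm2.

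The one pathway list in which many members had groups that did not overlap was the circadian clock. In the mammalian clock, BMAL1 (encoded by Arntl) pairs with CLOCK or its relative NPAS2 and activates the Per, Cry, Nr1d, Dbp and Tef genes through E-box elements. PER and CRY proteins then repress that activity, and the loop runs in arteries as in most tissues. Of 18 clock genes, all tested, 8 were higher with sacubitril/valsartan in every library (44.4%, against 3.14% of all genes) and 3 were lower in every library (16.7%, against 2.98%). Their median log2 difference was 0.39, against 0.0089 for all genes. None of the 18 passed after adjustment over all genes (edgeR's quasi-likelihood test, adjusted p = 1 for each), so the pattern rests on counts and levels and not on a call. Members of the same loop, measured in the same 6 libraries, are not independent of each other, so the shares do not measure the strength of the pattern. The list was also chosen with earlier results of these data known.

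Among the repressors, Cry2 (chromosome 2, 92403646 to 92434043) was at 69.8, 61.0 and 61.1 CPM with the drug and 52.2, 44.8 and 41.6 CPM with vehicle. The lowest drug value stood above the highest vehicle value, and the log2 difference was 0.47 ± 0.17 (SE; unadjusted p = 0.0102 in edgeR's test across all genes). Per2 was at 47.9, 36.65 and 47.75 against 29.3, 21.8 and 35.3 CPM, a log2 difference of 0.62 ± 0.32. Per3 was at 99.1, 88.0 and 107.6 against 80.9, 59.7 and 69.8 CPM (0.49 ± 0.28). Cry1, expressed at a lower level, was at 9.77, 9.75 and 12.7 against 7.23, 8.53 and 7.57 CPM (0.46 ± 0.52), whereas Per1 averaged 121 ± 9.6 CPM with the drug and 96.6 ± 17.5 CPM with vehicle (SD, n = 3 each) and its groups overlapped by 1 pair of nearly equal values. Ciart, a repressor of the CLOCK-BMAL1 pair, was at 10.7, 7.67 and 12.5 against 7.15, 4.13 and 7.53 CPM (0.72 ± 0.40).

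The output genes that encode PAR-bZIP factors had estimates above 0 as well. Tef was at 295, 265 and 306 CPM with the drug and 232, 190.7 and 209 CPM with vehicle (log2 difference 0.46 ± 0.25, SE), and Dbp averaged 193.9 ± 19.9 CPM with the drug and 141.2 ± 28.7 CPM with vehicle (SD, n = 3 each), without overlap (0.46 ± 0.30). Their relative Hlf had an estimate of the same size, 0.47 ± 0.32, with groups that overlapped.

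The activating arm lay the other way. Npas2 (chromosome 1, 39193731 to 39363236) was at 2.85, 3.60 and 3.04 CPM with the drug and 4.54, 6.97 and 7.20 CPM with vehicle, a log2 difference of -0.98 ± 0.38 (SE; unadjusted p = 0.0163 in edgeR's test). Arntl was at 4.78, 6.16 and 6.12 against 6.62, 11.4 and 10.1 CPM (-0.72 ± 0.88), and Clock at 36.9, 34.6 and 34.2 against 39.1, 41.2 and 40.4 CPM (-0.19 ± 0.19). In Arntl the top drug library and the bottom vehicle library differed by under 1 CPM. The remaining members overlapped: Nr1d1 and Nr1d2, which repress Arntl, differed by 0.07 ± 0.37 and 0.21 ± 0.23, Bhlhe40 and Bhlhe41 by 0.04 ± 0.32 and 0.17 ± 0.30, and Nfil3, a repressor at D-box elements, by -0.27 ± 0.34.

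**Figure D3:**
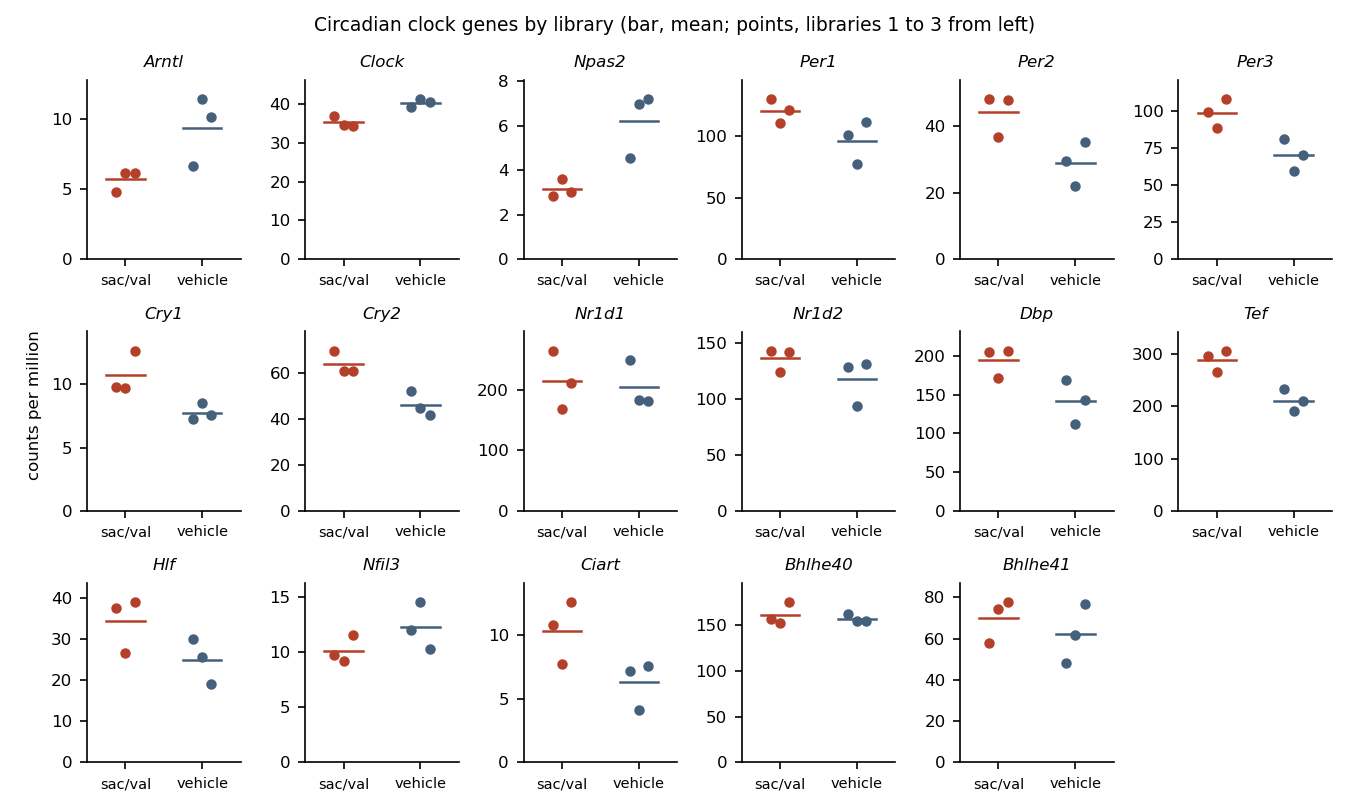
CPM of 17 circadian clock genes in the 3 sacubitril/valsartan libraries (left in each panel) and the 3 vehicle libraries (right), with group means as bars and each axis starting at 0. In 7 genes, among them Cry2, Per2 and Tef, every drug library lies above every vehicle library, and in Arntl, Clock and Npas2 every drug library lies below.

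The list's median log2 difference was between 0.25 and 0.44 across all 14 alternatives, with its lowest value in the fit that included scores for 6 surrounding tissues. The time of day at which each artery was taken is not given in the sources used here, and the part of collection time in the pattern was not tested.

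Promoter sequence of the clock genes was read for the elements through which the loop works. RefSeq windows (GRCm38.p6) of 300 bases, 250 before and 50 after the transcription start, were found for 15 of the 18 genes and searched on both strands for the E-box CACGTG, bound by CLOCK-BMAL1, the D-box TTATGTAA or TTACGTAA, bound by DBP, TEF and HLF, and the ROR element TAGGTCA, bound by ROR and REV-ERB receptors. No matched sites overlapped. An E-box was present for 5 of the 15 genes, against 8.09% of all 27025 genes with a window, and these were Ciart, Cry1, Tef, Per1 and Bhlhe41. A D-box was present in Per3 alone (1.23% of all genes) and a ROR element in Arntl and Nfil3 (2.97% of all genes). Of the 6 higher genes with a window, 3 held an E-box and 1 a D-box. None of the 3 lower genes held either, and Arntl held a ROR element 30 bases after 1 of its starts. The 250 bases before the start are shown for the 4 higher genes that held a match, with the matched letters in capitals, in the direction of transcription. A match describes the letters only.
Ciart, chr3:95882229-95882478, minus strand: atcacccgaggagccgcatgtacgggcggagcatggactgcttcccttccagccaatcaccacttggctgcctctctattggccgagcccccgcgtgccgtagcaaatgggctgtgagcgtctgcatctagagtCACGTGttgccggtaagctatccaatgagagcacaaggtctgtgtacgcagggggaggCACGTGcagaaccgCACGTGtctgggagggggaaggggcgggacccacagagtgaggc
Cry1, chr10:85185055-85185304, minus strand: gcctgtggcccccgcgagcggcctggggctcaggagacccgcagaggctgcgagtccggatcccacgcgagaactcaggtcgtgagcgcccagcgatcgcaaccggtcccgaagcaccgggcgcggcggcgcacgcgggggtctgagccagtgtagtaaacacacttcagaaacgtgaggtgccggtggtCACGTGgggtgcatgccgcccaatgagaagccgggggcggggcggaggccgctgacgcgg
Tef, upstream start, chr15:81802423-81802672, plus strand: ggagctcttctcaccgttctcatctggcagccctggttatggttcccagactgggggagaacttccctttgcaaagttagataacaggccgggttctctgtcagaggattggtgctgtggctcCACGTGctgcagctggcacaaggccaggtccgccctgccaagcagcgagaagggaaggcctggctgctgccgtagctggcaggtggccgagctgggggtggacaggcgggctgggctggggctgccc
Tef, downstream start, chr15:81811164-81811413, plus strand: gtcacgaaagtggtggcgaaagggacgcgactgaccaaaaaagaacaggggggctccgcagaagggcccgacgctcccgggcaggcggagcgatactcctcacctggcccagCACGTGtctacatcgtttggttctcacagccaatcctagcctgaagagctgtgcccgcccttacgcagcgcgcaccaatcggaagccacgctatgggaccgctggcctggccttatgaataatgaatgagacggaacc
Per3, chr4:151044666-151044915, minus strand: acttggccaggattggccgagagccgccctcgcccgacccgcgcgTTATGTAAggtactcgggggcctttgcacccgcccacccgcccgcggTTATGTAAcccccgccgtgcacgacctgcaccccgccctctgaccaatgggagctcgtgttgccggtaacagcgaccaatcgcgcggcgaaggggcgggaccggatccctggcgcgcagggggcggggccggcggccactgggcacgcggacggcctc

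Counted from the start, the 3 E-boxes of Ciart began at -116, -58 and -44 and the E-box of Cry1 at -60, and Tef had 1 before each of its starts. The D-boxes of Per3 began at -205 and -158. Cry2 and Dbp, both higher in every library, had no match in this window.

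The clock counts were set beside the same comparison in the other strain and regimen. In C57BL/6 mice dosed therapeutically, 2 of the 18 genes were higher without overlap and 0 lower (11.1% and 0%, against 2.71% and 3.89% of all genes), with a median log2 difference of 0.21. There Per2 was at 84.3, 56.3 and 61.1 CPM with the drug and 39.5, 23.6 and 55.7 CPM with vehicle, a log2 difference of 0.76 ± 0.32 (SE). The other gene was Clock, at 36.97, 34.26 and 37.8 CPM with the drug and 32.09, 31.84 and 31.27 CPM with vehicle (0.20 ± 0.19), which lay below vehicle without overlap under prophylactic dosing. In 129X1/SvJ mice, 0 of the 18 genes had groups that did not overlap on either regimen, with medians of -0.20 for prophylactic and 0.02 for therapeutic dosing. The corresponding shares of all genes were 5.8% higher and 3.44% lower for prophylactic dosing, and 1.59% and 0.907% for therapeutic dosing. Cry2 was at 65.0, 49.8 and 53.7 against 76.3, 59.4 and 55.7 CPM in prophylactically dosed 129X1/SvJ mice. The difference between the strains in the drug's effect on Cry2 was 0.65 ± 0.24 (SE, log2; unadjusted p = 0.0112, adjusted p = 1 in edgeR's test of the interaction), so it was not shown to differ.

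**Figure D4:**
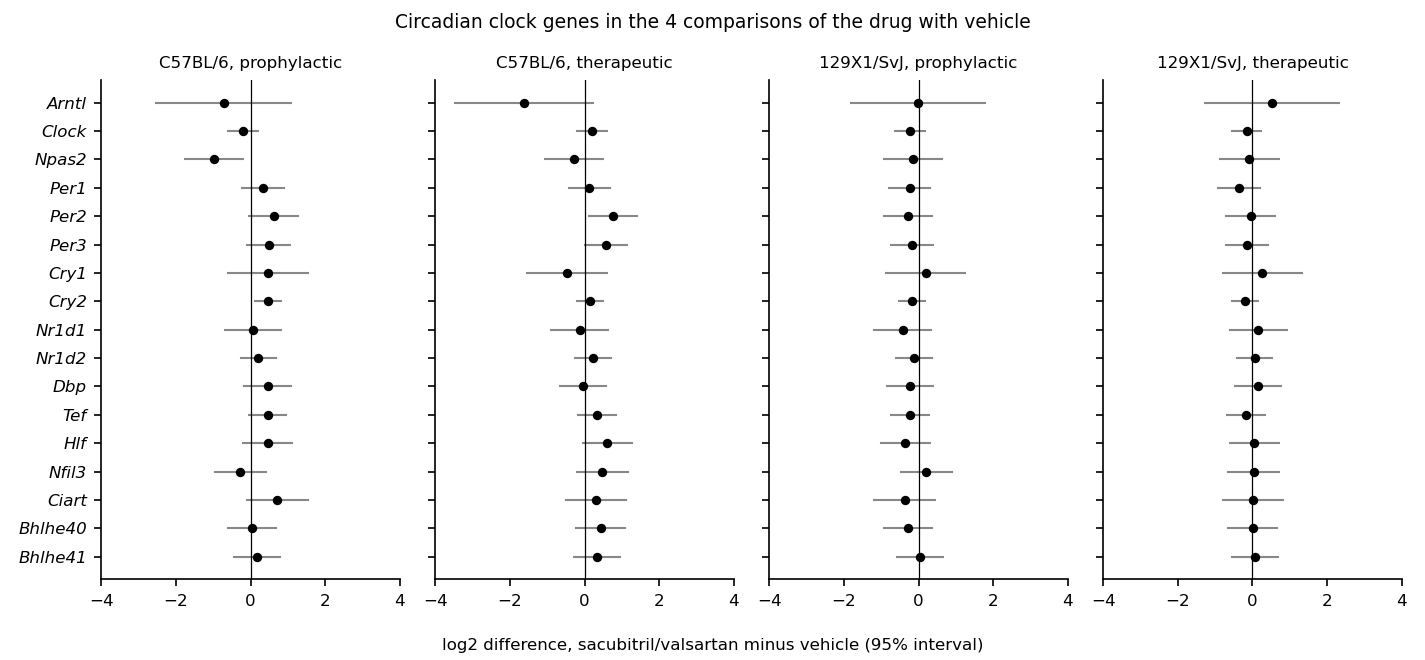
Log2 difference, sacubitril/valsartan minus vehicle, with its 95% interval, for 17 clock genes in each strain and regimen (3 libraries a group in every panel). Estimates for Per2 lie at 0.62 and 0.76 in C57BL/6 mice and at -0.29 and -0.05 in 129X1/SvJ mice.

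Most genes of the remodelling wall had estimates below 0, and none passed after adjustment. Among the matrix, TGF-beta, smooth muscle and cell cycle lists, only Col4a3 had an unadjusted p under 0.05 in edgeR's test (95% interval -2.41 to -0.23). In bulk tissue, fewer cells of a type and less RNA per cell cannot be told apart. With all 6 libraries, all 29 fibrillar matrix and elastic fibre genes had estimates below 0, with a median log2 difference of -0.33, a median 95% half-width of 1.23 and 0 genes passing. Of collagens I and III, the bulk of the fibrillar matrix, Col1a1 differed by -0.20 ± 0.74 and Col3a1 by -0.23 ± 0.73 (SE). Without drug replicate 2 these estimates were 0.08 and 0.05. Several other members, among them Dcn (0.21), Mfap2 (0.16) and Fbln2 (0.12), then lay above 0 too, so the shared sign rested on that library. Elastin (Eln) had the lowest estimate, -0.84 ± 1.09, which was 0.04 without vehicle replicate 1. The list's median stayed below 0 in all 14 alternatives but was -0.10 without drug replicate 2.

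In 5 of the 29 genes (17.2%, against 2.98% of all genes) every drug library lay below every vehicle library, and 0 lay above. Lysyl oxidase (Lox), which cross-links collagen and elastin, was at 303, 173 and 274 CPM with the drug and 443, 348 and 369 CPM with vehicle (log2 difference -0.63 ± 0.61, SE). Biglycan (Bgn), a matrix proteoglycan, was at 2622, 2039 and 2525 against 3712, 2866 and 3605 CPM (-0.50 ± 0.65). The other 3 were fibrillin 1 (Fbn1), Emilin1 and Loxl3, and these 5 were picked out after their values were seen. Summed adventitial fibroblast markers overlapped between the groups, at 14830, 4924 and 8965 CPM with the drug and 10820, 8327 and 10890 CPM with vehicle, and their part in these values was not tested.

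Basement membrane genes had a median of -0.27 (-0.17 in limma voom) and 4 of 19 (21.1%) lower without overlap. The abundant type IV collagen pair was among them: Col4a1 was at 845, 602 and 932 CPM with the drug and 1124, 1167 and 1063 CPM with vehicle (-0.50 ± 0.43, SE), and Col4a2 at 598.5, 480 and 706 against 867.5, 827 and 775 CPM (-0.47 ± 0.44). Col4a3 (chromosome 1, 82586921 to 82722059), a minor chain, had the largest estimate of the list, with 4.28, 2.16 and 2.74 against 9.44, 5.04 and 8.39 CPM (-1.32 ± 0.53, unadjusted p = 0.0199 in edgeR's test across all genes). Col15a1 was the remaining one.

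TGF-beta signalling genes, a list that mixes ligands, receptors and regulators of either direction, had 22 of 23 estimates below 0. Their median was -0.25, with 4 (17.4%) lower without overlap: Ltbp2, Eng, Cyr61 and Skil. That median was -0.11 without drug replicate 2. The clearest was Ltbp2, a latent TGF-beta binding protein family member, at 137.8, 145.8 and 234.8 CPM with the drug and 278, 256 and 250.4 CPM with vehicle (-0.60 ± 0.46, SE). Of the modulated smooth muscle and neointima genes, thrombospondin 1 (Thbs1), an activator of latent TGF-beta, was at 118, 124 and 141 against 181, 284 and 266 CPM (-0.93 ± 0.54), and Tnfrsf11b, the secreted decoy receptor osteoprotegerin, at 12.2, 7.95 and 17.2 against 33.7, 29.01 and 27.69 CPM (-1.27 ± 0.82). These 2 were the members of 18 without overlap (11.1%), and the list's median was -0.26, or -0.41 without drug replicate 1 and -0.11 with the 6 tissue scores.

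The contractile smooth muscle genes had a median of -0.36, which was -0.16 without vehicle replicate 1 and -0.60 without vehicle replicate 2. With 1 library left out the groups separate more readily, so counts without overlap can only stay or grow, in an alternative added after the data had been seen. Without vehicle replicate 2, 12 of 18 contractile genes (66.7%, against 8.72% of all genes) were lower without overlap, against 1 of 18 (5.56%) with all 6 libraries. That library had the lowest Acta2 and Myh11 levels of the 6, so leaving it out favoured this count. When any other library was left out, 1 or 2 of 18 were lower, and without drug replicate 1 there were 4 higher. Acta2 was at 913, 692 and 645 CPM with the drug and 1505, 614 and 1274 CPM with vehicle (-0.59 ± 0.78, SE), so the lowest library of all was a vehicle one. The 4 members with estimates above 0, Des, Tpm2, Hspb6 and Synpo2, are expressed by striated muscle too, and summed skeletal muscle markers were at 1182, 26530 and 23470 CPM with the drug and 425, 8222 and 7277 CPM with vehicle. Their log2 differences were 1.64, 1.30, 1.27 and 0.74. They were 0.44, 0.30, 0.44 and 0.17 when scores for 6 surrounding tissues, skeletal muscle among them, were fitted together. The part of skeletal muscle alone in those 4 values was not tested. Cell cycle genes had a median of -0.26 with a median half-width of 2.26, and 0 of 26 had groups that did not overlap. Their median was -0.05 without drug replicate 1 and -0.47 without drug replicate 3. Without vehicle replicate 1, 16 of 26 (61.5%, against 11.8% of all genes) were lower without overlap. When any other library was left out, 0 to 5 of 26 were.

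**Figure D5:**
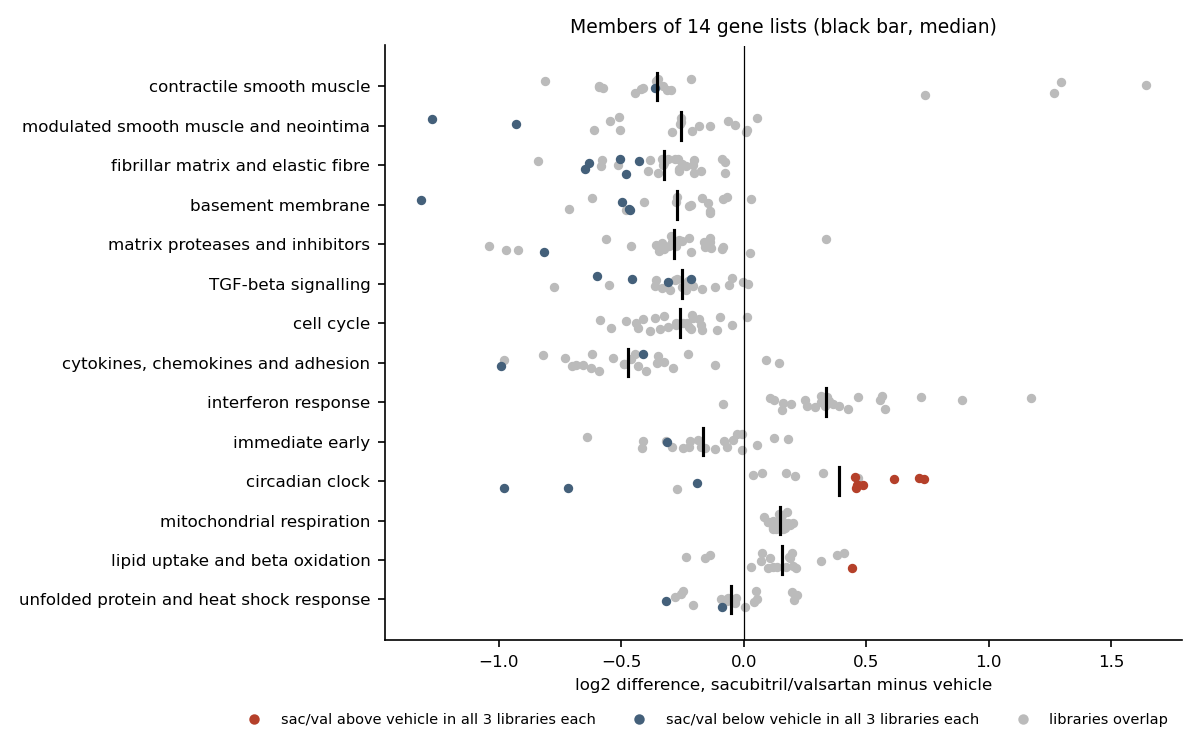
Log2 difference, sacubitril/valsartan minus vehicle, of every tested member of 14 gene lists, with the list median as a black bar and colour for members whose 3 libraries a group did not overlap. The clock list holds 8 coloured members on the right and 3 on the left, and the 29 fibrillar matrix genes all lie below 0.

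Most inflammatory genes had overlapping groups when all 6 libraries were used. Cytokines, chemokines and adhesion molecules had a median log2 difference of -0.47 with 2 of 26 lower without overlap (7.69%), Il6 and the macrophage growth factor Csf1. Csf1 was at 112.4, 109.9 and 117.3 CPM with the drug and 119.9, 162 and 169.9 CPM with vehicle (-0.41 ± 0.42, SE). Summed macrophage markers were at 3420, 5224 and 5667 against 2809, 8288 and 8298 CPM, and overlapped through vehicle replicate 1. Without that library, 10 of 26 cytokine genes (38.5%) and 14 of 18 macrophage genes (77.8%) were lower without overlap, against 11.8% of all genes. The medians were then -0.74 for cytokines and -0.61 for macrophage markers. That library had the lowest macrophage sum of the 6, so leaving it out favoured these counts. When any other library was left out, 0 of 18 macrophage genes and 2 to 7 of 26 cytokine genes were lower without overlap. Without vehicle replicate 2 the cytokine median was -0.23, and without vehicle replicate 3 the macrophage median was -0.03. Summed mast cell markers were at 112.8, 125.1 and 100.5 against 127.3, 172.3 and 127.6 CPM, with drug values all below (exact permutation test, two-sided, p = 0.1, adjusted p = 1 over 17 marker sums). Cma1, Cpa3 and Fcer1a were the 3 of 10 mast cell genes without overlap, in each case lowest in drug replicate 2. Interferon response genes had a median of 0.34, which became -0.51 without drug replicate 1, so its direction rested on that library.

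Mitochondrial respiration genes had a median of 0.15 and lipid uptake and oxidation genes one of 0.16. Without vehicle replicate 3, which was the poorest in fat markers and in mitochondrially encoded counts (2.31%, against 5.48% to 7.59% in the other 5 libraries), those medians were -0.22 and -0.27. Unfolded protein and heat shock genes had a median of -0.05, and immediate early genes one of -0.16, which was 0.0046 without vehicle replicate 2.

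Of the 10 genes with the smallest p above 5 CPM on the higher side, 5 were high in 1 library. Car6, the secreted carbonic anhydrase of salivary and lacrimal glands, was at 0.126, 2238 and 0.299 CPM with sacubitril/valsartan and 0.176, 0.825 and 0.165 CPM with vehicle. Its log2 difference of 10.91 ± 2.07 (SE, adjusted p = 0.377 in edgeR's test) became -0.85 without drug replicate 2. Mucl2, Wfdc18 and Bhlha15, a secretory cell transcription factor, had the same profile, with 203, 59.0 and 15.9 CPM in that library and at most 0.419 CPM in each of the other 5. Prol1, looked up afterwards with other gland genes, was at 1297 CPM there. Of those others, Aqp5, Klk1, Krt15 and Lrrc26 were also highest there, at 15.1, 8.75, 7.95 and 3.48 CPM. Bpifa2 and Smr3a were at 0 CPM in that library. Amy1 was at 81.5 CPM, within the range of the remaining libraries (26.7 to 100.1 CPM). Myh7, the slow myosin heavy chain, was at 103.8 CPM in drug replicate 3 and at most 0.0799 CPM in any of the other 5 libraries, and the slow muscle light chain Myl3 was at 30.3, 0.320 and 11.4 CPM with the drug and at most 0.353 CPM with vehicle.

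Of the remaining higher genes in that list, Cry2 was described above and 3 more separated the groups. Erdr1 was at 12.8, 20.0 and 14.5 CPM with the drug and 4.98, 7.75 and 8.43 CPM with vehicle (log2 difference 1.16 ± 0.40, SE). Valsartan alone gave 1.53 ± 0.41 for Erdr1 against the same vehicle libraries. In therapeutically dosed C57BL/6 mice the drug's difference lay the other way (-0.83 ± 0.40), with vehicle at 21.2 ± 1.5 CPM (SD, n = 3). Aldh3b2, an aldehyde dehydrogenase, was at 17.2, 14.7 and 12.2 against 11.9, 6.60 and 4.36 CPM (0.94 ± 0.36), and Vnn3, of the vanin family, at 7.42, 4.20 and 4.92 against 3.35, 4.17 and 2.35 CPM (0.74 ± 0.31). All 3 had an adjusted p of 1.

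On the lower side, Npas2 and Col4a3 led the list, and Anapc10 and Slc40a1 were the other members without overlap. Slc40a1, the iron exporter ferroportin, was at 19.03, 24.54 and 30.89 CPM with the drug and 32.5, 35.7 and 48.6 CPM with vehicle (-0.65 ± 0.32, SE). Anapc10, a subunit of the anaphase-promoting complex, had the narrowest error, at 10.06, 9.55 and 9.76 against 10.8, 12.2 and 12.2 CPM (-0.26 ± 0.12). Cemip and Acan varied widely among the vehicle libraries: the hyaluronan-degrading Cemip was at 1.93, 1.80 and 3.94 against 3.09, 4.31 and 16.4 CPM, and the cartilage proteoglycan Acan at 32.6, 8.59 and 23.8 against 105, 18.1 and 54.8 CPM. Summed chondrocyte markers, which include Acan, were at 161.5, 103.4 and 167.9 against 403.4, 135.2 and 219.6 CPM. Phex, a peptidase of the neprilysin family, was at 4.401, 2.278 and 4.407 against 10.4, 2.43 and 10.1 CPM (-1.05 ± 0.49). Fbxo30, Fchsd2 and Hif1a, the oxygen-regulated transcription factor, completed the 10 with overlapping groups and differences of -0.62 ± 0.27, -0.32 ± 0.16 and -0.41 ± 0.22.

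Sacubitril/valsartan was also set against valsartan alone at the same regimen, though the total doses differed (60 and 27 mg/kg/day). Again 0 of 18628 genes passed (0%), with a smallest adjusted p of 0.300, and 2400 had an unadjusted p under 0.05. That number was 179 without valsartan replicate 1, a library with 1591 CPM of the thymocyte gene Rag1, against 7.31 and 0.240 CPM in the other valsartan libraries. Mme differed by 0.61 ± 0.43 (SE, log2) and Npr3 by 0.97 ± 0.45, and Cry2, at 69.8, 61.0 and 61.1 CPM with sacubitril/valsartan and 38.95, 44.4 and 57.9 CPM with valsartan, by 0.44 ± 0.17. The genes with the smallest p were Car6 and Mucl2, both from drug replicate 2, and Ppt1, a lysosomal thioesterase, at 78.2 ± 5.5 CPM with sacubitril/valsartan and 124 ± 46.7 CPM with valsartan (SD, n = 3 each). Against the same vehicle libraries, valsartan alone gave log2 differences of -0.52 ± 0.43 for Mme, -0.36 ± 0.36 for Agtr1a, -0.76 ± 0.45 for Npr3, 0.03 ± 0.17 for Cry2 and -0.65 ± 0.38 for Npas2. The combination and valsartan alone share those vehicle libraries, so the values stand side by side only.

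Whether the effect of the drug differed by strain or by regimen was tested directly, and 0 of 18628 genes passed either interaction (0% for each). At an unadjusted p under 0.05 there were 336 genes for strain and 322 for regimen. DESeq2 called 6 and 23 genes, and limma voom 0 and 1. The 3 smallest p values by strain were for Marc1, Med21 and Acss2, an acetyl-CoA synthetase. Marc1 averaged 4.23 ± 1.79 CPM with the drug and 2.10 ± 1.04 CPM with vehicle in C57BL/6 mice, and 6.49 ± 1.63 and 13.9 ± 3.98 CPM in 129X1/SvJ mice (SD, n = 3 each; interaction 2.11 ± 0.66, SE). By regimen they were Gprc5a, Erdr1 and Calca, and the therapeutic vehicle group held Calca at 510.1 ± 881 CPM, so that 1 group varied by more than its mean.

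The fibrillar matrix genes lay the other way in prophylactically dosed 129X1/SvJ mice, where their median log2 difference was 0.81 and 14 of 29 (48.3%, against 5.8% of all genes there) were higher without overlap and 0 lower. Adventitial fibroblast markers there had a median of 0.32, with 5 of 15 (33.3%) higher without overlap, and their part in the matrix values was not tested. All 29 interaction estimates were below 0, with a median of -1.23, but 0 passed the interaction test and 0 had an unadjusted p under 0.05. In therapeutically dosed C57BL/6 mice the same genes had a median of 0.02 and 0 of 29 without overlap.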

How the data were processed

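Ligated left carotid arteries were sequenced as TruSeq stranded mRNA libraries, 3 mice in each of 12 groups, per the labels. The deposited table holds raw read counts per gene symbol, made by the authors with Trimmomatic 0.36, STAR 2.5.2b and featureCounts of Subread 1.5.0p3 on GRCm38, per the submitters' processing notes. The annotation release and the strand setting are not given in the sources used here, so reads of antisense partners may be merged. All 36 libraries (18.96 to 28.97 in units of 1000000 counts) were fitted as 12 group means (24 residual degrees of freedom) in edgeR 4.0.16 under R 4.3.3, with TMM factors, filterByExpr (18628 of 49568 symbols kept) and glmQLFTest, and adjusted by Benjamini-Hochberg over all genes tested at 0.05.

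CPM are counts per 1000000 of the TMM-scaled library, and log2 differences are sacubitril/valsartan minus vehicle with SE and 95% intervals from the same fit. Library measures and marker sums were compared by exact permutation over the 6 libraries. The 35 gene lists (18 of pathways, 17 of cell types), the named genes and the comparison itself were chosen with earlier results of these data known. Named genes were Mme, Agtr1a, Npr3, Npr1, Agt and Ace, and, as none passed, the 10 of smallest p in each direction at 5 CPM or more in 1 group, without immunoglobulin and T cell receptor segments, predicted genes and pseudogenes. For the interactions and for valsartan the 3 of smallest p were named. A gene was counted as without overlap when all libraries of 1 group lay above all of the other. Replicate pairs shared at most 0.539% of counts exactly. Alternatives were DESeq2 1.42.0, limma 3.58.1 voom, other size factors, no filter, a robust prior, 6 tissue scores or animal number as covariates, fewer libraries in the fit, and each library left out. The edgeR steps were tested on simulated data. Promoters are from RefSeq, GRCm38.p6, and gene positions from GENCODE M21. Values of some list members are not reported here, though the list counts include them.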

Additional observations from a re-analysis of the deposited data

How the results depend on the processing

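DESeq2 and the fits without drug replicate 1 or 3 were the alternatives under which genes passed between sacubitril/valsartan and vehicle. DESeq2, which tested 34582 genes without the filter on low counts, called 11 higher and 5 lower, and leaving out a library gave 0 to 2 higher in edgeR. Immunoglobulin or T cell receptor segments were among the DESeq2 calls in this comparison and in those below. For the strain interaction DESeq2 called 4 higher and 2 lower, and for the regimen interaction 23 higher, where limma voom called 1 higher, Erdr1. Against valsartan alone, DESeq2 called 16 lower and limma voom 1 lower, and leaving out a library gave 0 to 2 higher. Some single-gene estimates close to 0 changed sign, and the cause was not tested. With scores for 6 surrounding tissues, Mme was at -0.26, Agtr1a at -0.12, Npr3 at -0.19 and Nr1d1 at -0.10 (log2). Agtr1a was at -0.020 with animal number as a covariate and at -0.22 in limma voom. Leaving out a library gave ranges of -0.30 to 0.36 for Mme, -0.26 to 0.18 for Agtr1a, -0.023 to 0.41 for Npr3, -0.13 to 0.81 for Agt, -0.79 to 0.15 for Ace, -0.85 to 12.05 for Car6, -1.001 to 6.80 for Wfdc18, -0.10 to 0.23 for Nr1d1, -0.024 to 0.078 for Bhlhe40 and -0.00034 to 0.35 for Bhlhe41. The lower ends for Car6 and Wfdc18 came without drug replicate 2. No paired analysis was possible because the labels give no replicate numbers, and the replicates were numbered in accession order. With 3 libraries a group, the median 95% half-width was 0.753 over all genes and 0.557 over genes at 5 CPM or more. A log2 difference smaller than a gene's own half-width could not be told from 0.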
